A study of Rattus norvegicus with 129 samples.

Results

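The nuclear genes for the subunits of the mitochondrial respiratory chain and ATP synthase were followed in rat liver across exposures to phenobarbital (PB), pregnenolone-16α-carbonitrile (PCN), 3H-1,2-dithiole-3-thione (D3T), perfluorooctanesulfonic acid (PFOS), perfluorooctanoic acid (PFOA) and Wy-14643. Members were all probe sets whose array annotation gives a single symbol starting with Ndufa, Ndufb, Ndufc, Ndufs, Ndufv, Sdha to Sdhd, Uqcr, Cyc1, Cox4 to Cox8 or Atp5, with the assembly factors (Ndufaf, Sdhaf) left out. No measured value entered this rule. It gave 81 genes: 36 of complex I, 4 of complex II, 8 of complex III, 17 of complex IV and 16 of complex V. The array used for PB, PCN, D3T and 3-week PFOS carried 98 member probe sets for 54 of these genes, among 8740 probe sets tested. The array used for Wy-14643 carried 85 for 80 genes, among 15866 tested, and that of the PFOA and PFOS study 90 for all 81 genes, among 31042 tested. Ndufa4 is placed with complex I by its symbol, although its protein is now regarded as a subunit of complex IV, and the rule also takes in Cox6c-ps1, annotated as a pseudogene.

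Whole livers from 5 studies were hybridised to single-colour Affymetrix arrays, and 128 of the 129 arrays were used. In the PB and PCN study, male and female Sprague-Dawley rats, whose age is not given, were gavaged with PB at 100 mg/kg, PCN at 100 mg/kg or their vehicle of methylcellulose with Tween 80. Livers of 5 rats a group were collected at 6 h or at 24 h following 1 dose, or a day after dosing on 5 days in a row. In the D3T study, female Sprague-Dawley rats 4 weeks old ate a mash diet without or with D3T at 600 mg per kg of diet, 4 rats each, for a time that the labels used here do not give. In the 3-week study, female Sprague-Dawley rats 60 days old were gavaged daily with PFOS at 5 mg/kg or with its Tween-20 vehicle, 2 rats each. In the PFOA and PFOS study, male Sprague-Dawley rats 10 weeks old were gavaged with PFOA at 20 mg/kg/day, PFOS at 10 mg/kg/day or a shared Alkamuls vehicle, 3 rats each, again for a time not given here. In the Wy-14643 study, male Wistar Hanover rats received 60 mg/kg/day Wy-14643 or carboxymethyl cellulose vehicle for 1, 3 or 7 days, 3 rats a group, and the label of rat 06 of the 3-day group names no dose. PB and PCN share their vehicle rats, and PFOA and PFOS share theirs, so these comparisons are not independent of each other. A measured loss in whole liver cannot tell fewer cells of a type apart from less RNA per cell.

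As background, complexes I and II take electrons from NADH and from succinate, complex III passes them from ubiquinol to cytochrome c, and complex IV hands them to oxygen. The protons pumped by complexes I, III and IV drive complex V, the ATP synthase, and hepatocytes are rich in mitochondria that carry these complexes. Most subunits are nuclear genes, while a few of the catalytic ones are encoded in mitochondrial DNA. PB and PCN are classical activators of the nuclear receptors CAR and PXR, which induce drug metabolism genes, D3T induces genes under the factor NRF2, and Wy-14643 and the perfluorinated acids activate PPARα, the receptor behind fatty acid oxidation genes. The factors NRF-1, GABP, ERRα, YY1 and SP1 are known to act at promoters of respiratory chain genes.

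The promoters of 5 members named below, each with a motif match, are shown as 250 bases before the annotated start. They run 5′ to 3′ on the gene's own strand, from RefSeq sequence of the build GRCr8. They are not typical of the members: of 72 member promoters 7 held the NRF-1 core, 8 the ETS motif and 2 the ERR motif. Capitals mark matches to a searched motif. Sdhb, at chr5:158547684-158547933 (plus strand), and Ndufa6, at chr7:115750318-115750567 (minus strand), each hold 1 match to the NRF-1 core GCGCATGC, and Ndufa11, at chr9:1637364-1637613 (plus strand), holds 4 overlapping ones. Cox8a, at chr1:213833624-213833873 (minus strand), holds 2 matches to the ETS motif CCGGAAGT that GABP binds, and Atp5mc3, at chr3:79220665-79220914 (minus strand), holds 1 match to the ERR motif TCAAGGTCA.
Sdhb: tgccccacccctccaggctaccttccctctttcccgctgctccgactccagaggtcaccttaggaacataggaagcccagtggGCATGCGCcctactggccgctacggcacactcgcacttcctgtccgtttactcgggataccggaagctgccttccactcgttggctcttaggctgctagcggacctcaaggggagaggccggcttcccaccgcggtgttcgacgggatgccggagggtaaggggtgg
Ndufa6: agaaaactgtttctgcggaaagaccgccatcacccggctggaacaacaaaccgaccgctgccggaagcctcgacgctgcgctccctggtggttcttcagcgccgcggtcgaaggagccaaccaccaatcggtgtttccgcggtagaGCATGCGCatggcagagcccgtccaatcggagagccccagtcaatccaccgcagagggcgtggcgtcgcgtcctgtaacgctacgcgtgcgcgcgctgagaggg
Ndufa11: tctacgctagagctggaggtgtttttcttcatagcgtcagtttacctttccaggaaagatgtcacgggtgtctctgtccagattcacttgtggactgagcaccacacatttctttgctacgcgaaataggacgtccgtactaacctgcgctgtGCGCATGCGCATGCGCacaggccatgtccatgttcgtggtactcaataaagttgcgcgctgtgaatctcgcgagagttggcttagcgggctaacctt
Cox8a: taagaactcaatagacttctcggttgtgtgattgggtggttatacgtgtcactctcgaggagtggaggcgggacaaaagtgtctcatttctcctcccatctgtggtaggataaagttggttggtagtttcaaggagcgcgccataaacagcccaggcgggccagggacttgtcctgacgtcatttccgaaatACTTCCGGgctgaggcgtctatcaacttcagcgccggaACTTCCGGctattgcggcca
Atp5mc3: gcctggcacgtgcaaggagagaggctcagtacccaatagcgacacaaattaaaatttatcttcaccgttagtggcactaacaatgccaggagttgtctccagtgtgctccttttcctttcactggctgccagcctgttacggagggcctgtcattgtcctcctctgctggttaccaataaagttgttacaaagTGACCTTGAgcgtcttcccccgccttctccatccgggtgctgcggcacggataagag

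Promoter sequence was found for 72 of the 81 genes, among 33469 promoters in the table, with a window of 250 bases before and 50 after the start and both strands searched. The NRF-1 core was present in 9.72% of the member promoters against 2.47% of all, and the ETS motif in 11.1% against 3.81%. The ERR motif stood in 2.78% against 0.433%, which is 2 genes. The YY1 motif AAGATGGCG stood in 13.9% of the members, 10 genes of which 7 belong to complex I, against 1.73% of all promoters. The short SP1 motif GGGCGG stood in 43.1% against 33.1%. Among promoters of protein-coding genes alone the shares were 3.11% for NRF-1, 4.78% for ETS, 0.366% for ERR, 2.07% for YY1 and 41.8% for SP1. These matches describe letters and do not show binding, and none of the motifs holds the letters of another.

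Values below are log2(intensity + 16) after normalisation within a study, which puts a floor of 4.00 under signals at or below 0, and a change is the difference of group means on that scale. A probe set was called where the Benjamini-Hochberg adjusted p of limma over all probe sets tested was under 0.05, and a gene's value below is that of its brightest probe set unless said otherwise. The mean deposited intensity per array ran from 92.2 to 609, and the small number of arrays a group limits the precision. The array labelled rat 1003, a male vehicle rat at 6 h, was left out by the rule: over all probe sets its correlation with the other 4 rats of its group was 0.621 to 0.630, against 0.961 to 0.970 between those. Of the treatment markers, Cyp2b2 was higher by 3.29 to 4.60 after PB, Nqo1 by 2.72 after D3T and Cyp4a1 by 2.67 after 1 day of Wy-14643. No treatment marker was called after PFOS at 10 mg/kg/day, and no probe set at all after 3 weeks of PFOS. No Cyp3a value after PCN and no marker value after PFOA is given here. Hepatocyte markers were high in every study, and the markers Cd3d of lymphocytes and Tnni2 of skeletal muscle were at the floor on the array of the PB and PCN study. The labels number each rat, so replicates are taken as separate animals. Most members were well measured: 78 of 98 probe sets were never at the floor in the PB and PCN study, 85 of 90 in the PFOA and PFOS study and 79 of 85 in the Wy-14643 study.

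Across the 19 treatment comparisons, 46 of the 81 genes were called at least once and 35 never. The share of all genes called at least once was not taken, and a gene had 19, 5 or 2 comparisons, depending on the arrays that carry it. The counts therefore describe the members only and do not rank the complexes. Called at least once were 23 genes of complex I, 1 of complex II (Sdhb), 4 of complex III, 8 of complex IV and 10 of complex V. The total and the complex IV count include Cox6c and Cox8b, each called after D3T alone, on a probe set that the gene's own change helped to choose. The calls gathered in few comparisons, mainly 5 days of PCN in females, where nearly all were lower, and 1, 3 and 7 days of Wy-14643, where nearly all were higher. D3T came next, with 13 of 98 member probe sets called, in both directions, where 5.33% of all probe sets were called higher and 7.15% lower. Cyc1 and Ndufa6 were called most widely, in 6 of 19 comparisons each. Cyc1, the heme-bearing cytochrome c1 of complex III, was called higher in 4 and lower in 2. Ndufa6, an accessory subunit of complex I, was called lower in 6 and higher in none. Atp5f1d, Ndufa3 and Ndufab1 were each called higher in 4 and lower in 1, and 8 genes in all were called in both directions. The heatmap of all genes and the plot of complex medians by array show these same patterns.

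**Figure D1:**
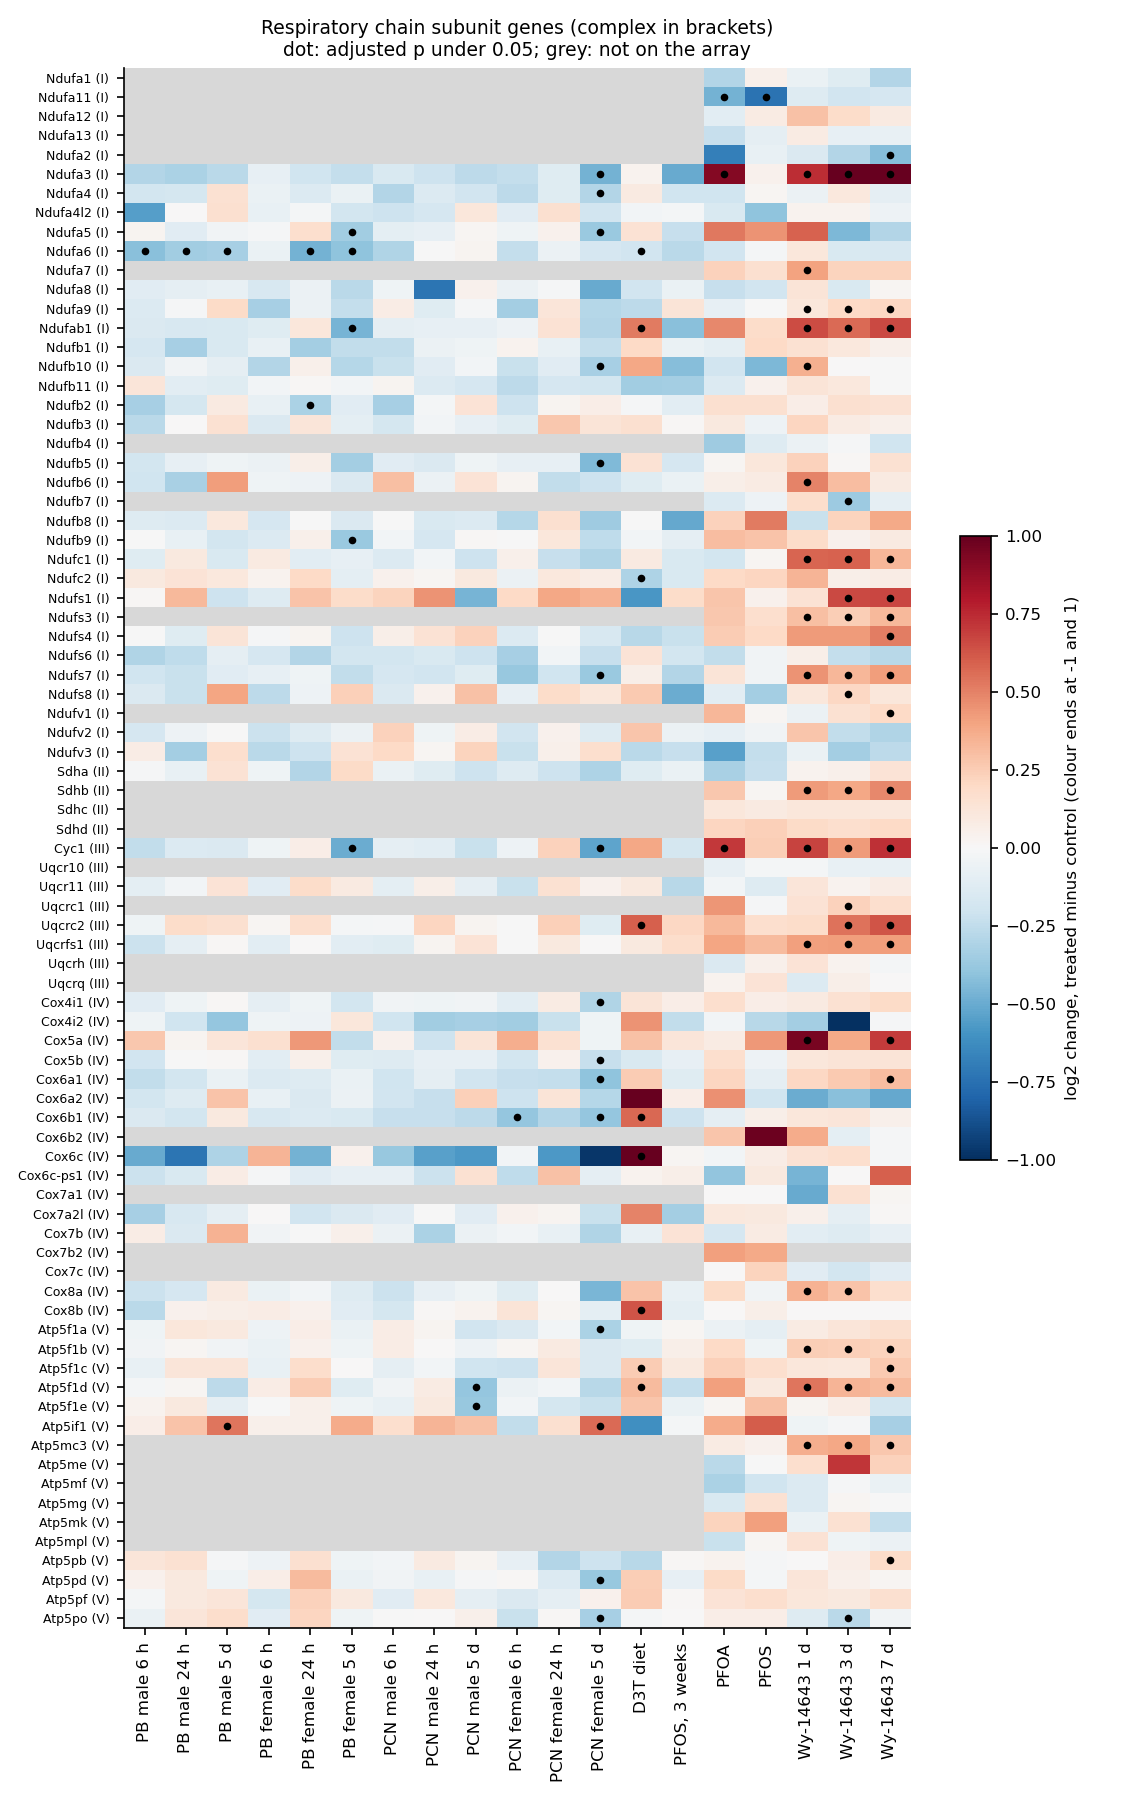
Log2 change of each of the 81 genes (rows, by complex) in the 19 treatment comparisons (columns), with the colour scale ending at -1 and 1, a dot for an adjusted p under 0.05 and grey for a gene not on that array. Blue columns of dots stand under PCN in females at 5 days and red ones under Wy-14643. The dots of Cox6c and Cox8b under D3T are each from a probe set that the gene's own change helped to choose.

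After 5 daily doses of PCN, female livers held less of many subunit transcripts. The median change over the 54 genes was -0.23, with 44 genes below 0, while under median scaling it was -0.21. Of the 98 member probe sets, 22 were called lower, or 22.4%, and 2 higher, where 3.97% of all probe sets were called lower and 4.45% higher. Bright probe sets are called more often, so a further description, chosen after the data were seen, kept those at least as bright as the median member: there 17 of 49 members, or 34.7%, were called lower and none higher, against 13.8% lower and 11.8% higher of 1097 probe sets. Read by gene, 14 genes were called lower and 1, Atp5if1, higher. By complex the median was -0.23 in complex I, -0.31 in Sdha, the flavoprotein and single measured gene of complex II, -0.060 in complex III, -0.29 in complex IV and -0.21 in complex V, and all 13 complex IV genes were below 0. Median scaling gave -0.22, -0.28, -0.043, -0.23 and -0.15 in the same order.

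In complex I, Ndufa3, an accessory subunit of the membrane arm, measured 9.65, 9.68, 9.68, 9.69 and 9.72 in the vehicle females and 8.80, 9.23, 9.24, 9.26 and 9.53 in the PCN females. All PCN rats lay below all vehicle rats, and the change was -0.47 (SE 0.11, adjusted p = 0.0011). Ndufb5, another membrane arm subunit, measured 8.97, 9.25, 9.32, 9.36 and 9.39 with vehicle and 8.61, 8.78, 8.82, 8.92 and 8.93 with PCN. Its groups did not overlap either, with a change of -0.44 (SE 0.12, adjusted p = 0.0057). Ndufs7, an iron-sulfur core subunit next to the ubiquinone site, fell by 0.37 (SE 0.12, adjusted p = 0.032), and Ndufa4 changed by -0.29 (adjusted p = 0.0099). Ndufa5 and Ndufb10, named after their values were seen, changed by -0.37 (adjusted p = 0.0077) and -0.33 (adjusted p = 0.039). The remaining 20 complex I genes on this array were not called.

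In complex III, Cyc1 measured 9.34, 9.50, 9.51, 9.64 and 9.91 with vehicle and 8.89, 8.95, 8.96, 9.23 and 9.25 with PCN. Every PCN female was below every vehicle female, a change of -0.52 (SE 0.12, adjusted p = 0.0011), or 0.695-fold. The other 3 genes of complex III on this array were not called. In complex IV, Cox4i1, the ubiquitous form of subunit 4, measured 11.15, 11.18, 11.22, 11.22 and 11.26 with vehicle and 10.79, 10.83, 10.88, 10.93 and 11.08 with PCN. The groups were apart and the change was -0.30 (SE 0.065, adjusted p = 0.00053), and its other probe set gave -0.32 (adjusted p = 0.0014). Cox6a1, the liver form of subunit 6a, changed by -0.41 (SE 0.098, adjusted p = 0.0025), with -0.28 (adjusted p = 0.023) on its other called probe set. Cox6b1, a subunit at the contact between the complex IV monomers, changed by -0.39 (SE 0.092, adjusted p = 0.0019). The groups of both genes did not overlap on these leading probe sets. Cox5b and Cox8a were named after their values were seen: Cox5b changed by -0.23 (adjusted p = 0.043) and by -0.54 (adjusted p = 0.0011) on a second probe set. Cox8a, the small subunit 8 of liver, fell by 0.78 on 1 probe set (SE 0.17, adjusted p = 0.00039), while its brightest one gave -0.45 (adjusted p = 0.050) and was not called.

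In complex V, Atp5f1a, the α subunit of the catalytic head, measured 10.65, 10.71, 10.72, 10.78 and 10.80 with vehicle and 10.06, 10.37, 10.51, 10.51 and 10.62 with PCN. Its groups did not overlap and the change was -0.32 (SE 0.069, adjusted p = 0.00060). Of the peripheral stalk, Atp5pd changed by -0.38 (adjusted p = 0.016) and Atp5po by -0.34 (adjusted p = 0.0090), with -0.59 (adjusted p = 0.015) on a second Atp5po probe set. Atp5if1, the inhibitor that stops ATP synthase from running backwards, moved the other way, from 7.40, 7.44, 7.67, 7.86 and 7.91 with vehicle to 7.94, 8.00, 8.18, 8.27 and 8.71 with PCN. Every PCN rat was above every vehicle rat, a change of 0.56 (SE 0.12, adjusted p = 0.00035), and 2 of its 4 probe sets were called. As a measure of RNA integrity, the 3′/5′ ratio of the GAPDH control probe sets was 1.17 to 1.70 with PCN and 1.17 to 1.71 with vehicle. Of the hepatocyte markers 1 of 8 was called higher and 2 lower, with a summed log2 level of 15.6 to 15.7 in PCN rats and 15.6 in vehicle rats, 1 of 3 bile duct markers was called higher, and none of the other marker lists had a call. Their part in the result was not tested.

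Calls of single genes depended on settings. Under median scaling 11 member probe sets were called in place of 24, with only the groups compared in the fit 12, and with rat 1003 kept 13. Keeping rat 1003 ended the calls of Cyc1 (adjusted p = 0.64), Atp5pd and Cox4i1, and fitting only these groups ended those of Atp5f1a, Atp5if1, Atp5pd, Ndufa3, Ndufa4 and Ndufs7. Median scaling ended the calls of Atp5f1a, Atp5pd, Atp5po, Cox4i1, Ndufa4 and Ndufs7, with Cox4i1 at an adjusted p of 0.30 and Atp5f1a at 0.086, while Cyc1, Ndufa3, Cox6a1, Cox6b1, Ndufb5 and Atp5if1 were still called. The calls under median scaling were 2 higher and 9 lower, and leaving out any single array gave 19 to 27 called probe sets.

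Neighbouring mitochondrial genes were counted in the same PCN females, where 4.45% of all probe sets were called higher and 3.97% lower. Of the citrate cycle and pyruvate genes, 1 of 12 was called higher (Suclg1, 0.24) and 1 lower (Pc, pyruvate carboxylase, -1.42), and of the carriers and electron entry enzymes 1 of 7 higher (Etfa, 0.29) and 1 lower (Etfdh, -0.67). None was called of 14 mitochondrial ribosome genes (median 0.14), 7 assembly factors (median 0.059), 9 nucleotide, phosphate and proton transporters (median -0.14), 3 biogenesis regulators and 3 subunits encoded in mitochondrial DNA. Cyp4a1, a PPARα target among the treatment markers, changed in these females by -2.07 and changed by -0.54 in the males, where it was not called. Whether these lists differ from the subunits was not tested.

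In males given PCN for 5 days, 2 member probe sets were called lower and none higher, against 1.84% and 2.89% of all probe sets. Both lie in the central stalk of ATP synthase: Atp5f1d changed by -0.39 (SE 0.12, adjusted p = 0.041) and Atp5f1e by -0.38 (SE 0.10, adjusted p = 0.012). Atp5f1d measured 9.44, 9.48, 9.52, 9.52 and 9.64 with vehicle and 8.57, 9.21, 9.22, 9.29 and 9.36 with PCN, so the groups did not overlap. The median over 54 genes was -0.044, with 33 below 0, and turned to 0.026 under median scaling. The difference between the sexes was tested directly: no member passed, against 0.606% of all probe sets, and at an unadjusted p under 0.05 the count was 0 higher and 9 lower. The female change minus the male change had a median of -0.19 over the genes, with 45 of 54 below 0, and of -0.20 in complex I and -0.22 in complex IV. Vehicle females lay above vehicle males on most genes at 5 days, as described below, and this gap enters the difference. How much of the difference it makes up was not tested. The widest single differences were 0.81 for Ndufs1 and -0.55 for Ndufa8, neither called. Cyc1 in males measured 9.27, 9.29, 9.37, 9.42 and 9.55 with vehicle and 9.02, 9.06, 9.16, 9.17 and 9.38 with PCN, a change of -0.22 (adjusted p = 0.35) that was not called. Leaving out single arrays moved the male count: it was 0 without vehicle rat 1012 or 1013 and 1 without vehicle rat 1011, vehicle rat 1014 or PCN rat 5013, whose GAPDH 3′/5′ ratio of 4.16 stood apart.

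**Figure D2:**
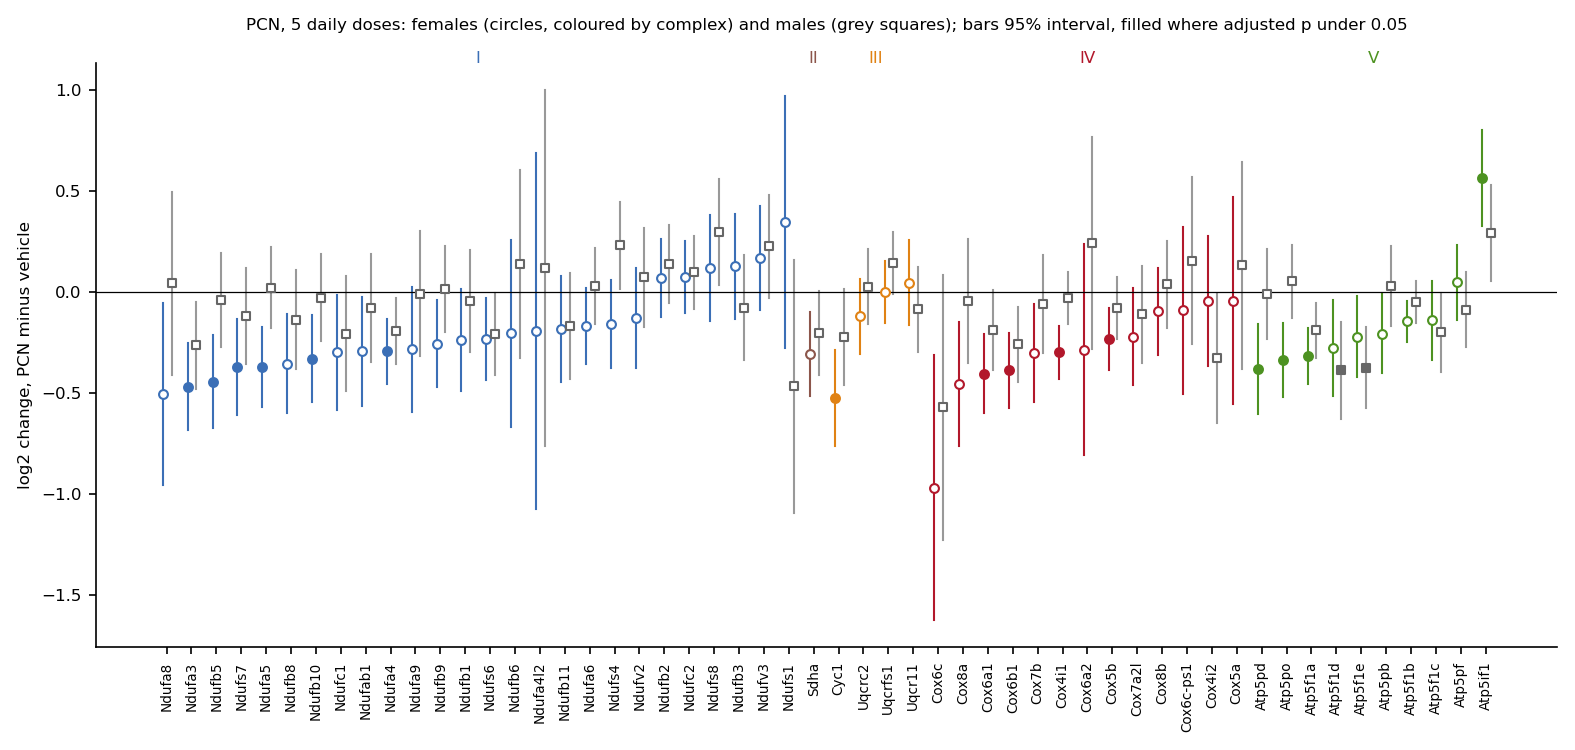
Log2 change after 5 days of PCN for the 54 genes on the array, females as circles coloured by complex and males as grey squares, bars giving the 95% interval and filled symbols an adjusted p under 0.05. In females 14 genes are filled below 0 and 1, Atp5if1, above it, while in males Atp5f1d and Atp5f1e are filled.

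Earlier after PCN little was called. At 6 h in females Cox6b1 alone was called, with 9.47, 9.51, 9.69, 9.71 and 9.72 in vehicle and 8.94, 9.11, 9.31, 9.33 and 9.46 in PCN rats and no overlap, a change of -0.39 (SE 0.092, adjusted p = 0.0068). That is 1 of 98 members where 2.23% of all probe sets were called, and 0 members when only these groups were fitted. Leaving out 1 array gave 0 (PCN rat 5505) to 4 (vehicle rat 1503 or PCN rat 5502) members, with 3 without vehicle rat 1502 or PCN rat 5504. In males at 6 h none was called against 1.9% of all, with 1 higher and 7 lower at an unadjusted p under 0.05 and the widest changes in Cox6c (-0.38) and Ndufb2 (-0.33). In males at 24 h none was called against 0.572%, with 3 higher and 8 lower unadjusted, and the widest changes were in Ndufa8 (-0.73), whose PCN rats scattered with an SD of 1.32, and Cox6c (-0.55). In females at 24 h none was called against 3.7%, with 5 higher and 5 lower unadjusted, and the widest were Cox6c (-0.57) and Ndufs1 (0.38). The gene medians were -0.088 and -0.12 at 6 h in males and females and -0.066 and 0.014 at 24 h. Without PCN male 5005 at 6 h 2 members were called, and 1 without 5001 or 5003; at 24 h 1 was called without PCN male 5009, vehicle female 1508 or PCN female 5508, 5509 or 5510.

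After PB the most regular change was in Ndufa6, a small accessory subunit of complex I that belongs to the LYR protein family. It was called lower in 5 of the 6 PB comparisons. In males it changed by -0.42 (SE 0.099, adjusted p = 0.016) at 6 h, -0.35 (SE 0.093, adjusted p = 0.026) at 24 h and -0.33 (SE 0.093, adjusted p = 0.019) at 5 days. In females it changed by -0.47 (SE 0.093, adjusted p = 0.00033) at 24 h and -0.40 (SE 0.093, adjusted p = 0.0051) at 5 days, and by -0.070 (adjusted p = 1.0) at 6 h, which was not called. At 24 h the vehicle females measured 9.98, 10.03, 10.08, 10.11 and 10.31 and the PB females 9.50, 9.57, 9.58, 9.65 and 9.85, without overlap. At 5 days the vehicle males measured 9.81, 9.85, 9.85, 9.90 and 10.12 and the PB males 9.24, 9.47, 9.66, 9.70 and 9.78, again apart, while the female groups at 5 days overlapped. The size was modest, 0.722-fold at its widest, and the call was lost under median scaling in all 3 male comparisons and in females at 24 h, where the adjusted p was 0.060, and with rat 1003 kept it was lost in all. Fitting only the groups compared ended it in the 3 male comparisons and in females at 5 days. The shared vehicle rats enter the PCN comparisons too, where Ndufa6 changed by 0.029 in males and -0.17 in females at 5 days without a call.

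Beside Ndufa6, PB left few calls. In males Ndufa6 was the only member called at 6 h (not without vehicle rat 1002 or 1005 or PB rat 4001) and at 24 h (not without vehicle rat 1006 or 1009 or PB rat 4006 or 4008, and 2 without vehicle rat 1008), 1 of 98 against 0.732% and 2.3% of all probe sets. At 24 h in females 3 were called lower and none higher, against 1.75% and 2.32%, adding Ndufb2 (-0.32, adjusted p = 0.043) and, named after its values were seen, a dimmer probe set of Cox7a2l (-0.73, adjusted p = 0.020). At 6 h in females none was called against 2.61%, with 0 higher and 5 lower at an unadjusted p under 0.05, and the widest changes were in Cox6c (0.34) and Ndufa9 (-0.33). At 5 days in females 6 were called lower and none higher, against 1.03% and 1.45% of all, and the gene median was -0.10 with 43 of 54 below 0. Cyc1 fell by 0.50 (SE 0.12, adjusted p = 0.0069), with 9.34, 9.50, 9.51, 9.64 and 9.91 in the vehicle females and 8.63, 9.07, 9.09, 9.27 and 9.36 in the PB females, which overlapped. Ndufab1, the mitochondrial acyl carrier protein, changed by -0.46 (adjusted p = 0.041) and Ndufb9 by -0.37 (adjusted p = 0.041). At 24 h median scaling gave 1 call higher and 1 lower, and without vehicle rat 1509 or 1510 a single call was left. At 5 days median scaling left 1 of the 6 called, Ndufa6, fitting only these groups or keeping rat 1003 left none, and leaving out 1 array left 1 (vehicle rat 1513) to 6, with 2 without vehicle rat 1514 and 3 without PB rat 4511 or 4513.

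At 5 days in males 2 probe sets were called higher and 2 lower, against 2.56% and 2.32% of all. Both of the higher ones belong to Atp5if1, which measured 7.71, 7.75, 7.97, 8.03 and 8.03 with vehicle and 8.27, 8.32, 8.40, 8.44 and 8.75 with PB, a change of 0.54 (SE 0.12, adjusted p = 0.0015) without overlap. In females Atp5if1 changed by 0.37 (adjusted p = 0.085). The lower ones were Ndufa6 and a dimmer Cox4i1 probe set, named after its values were seen (-0.29, adjusted p = 0.0087), which was also called in PB females (-0.25, adjusted p = 0.046). The gene median was 0.010, against -0.10 in females. No member differed between the sexes in its PB change, against 0.103% of all, with 1 higher and 6 lower at an unadjusted p under 0.05, and the widest differences were in Ndufb6 (-0.57) and Cox4i2 (0.50). Median scaling gave 2 higher calls and no lower one, fitting only the groups compared left none of the 4, and without PB rat 4012 there were 7. PB rat 4013 had a GAPDH 3′/5′ ratio of 6.19, and without it 4 were called, 2 in each direction.

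**Figure D3:**
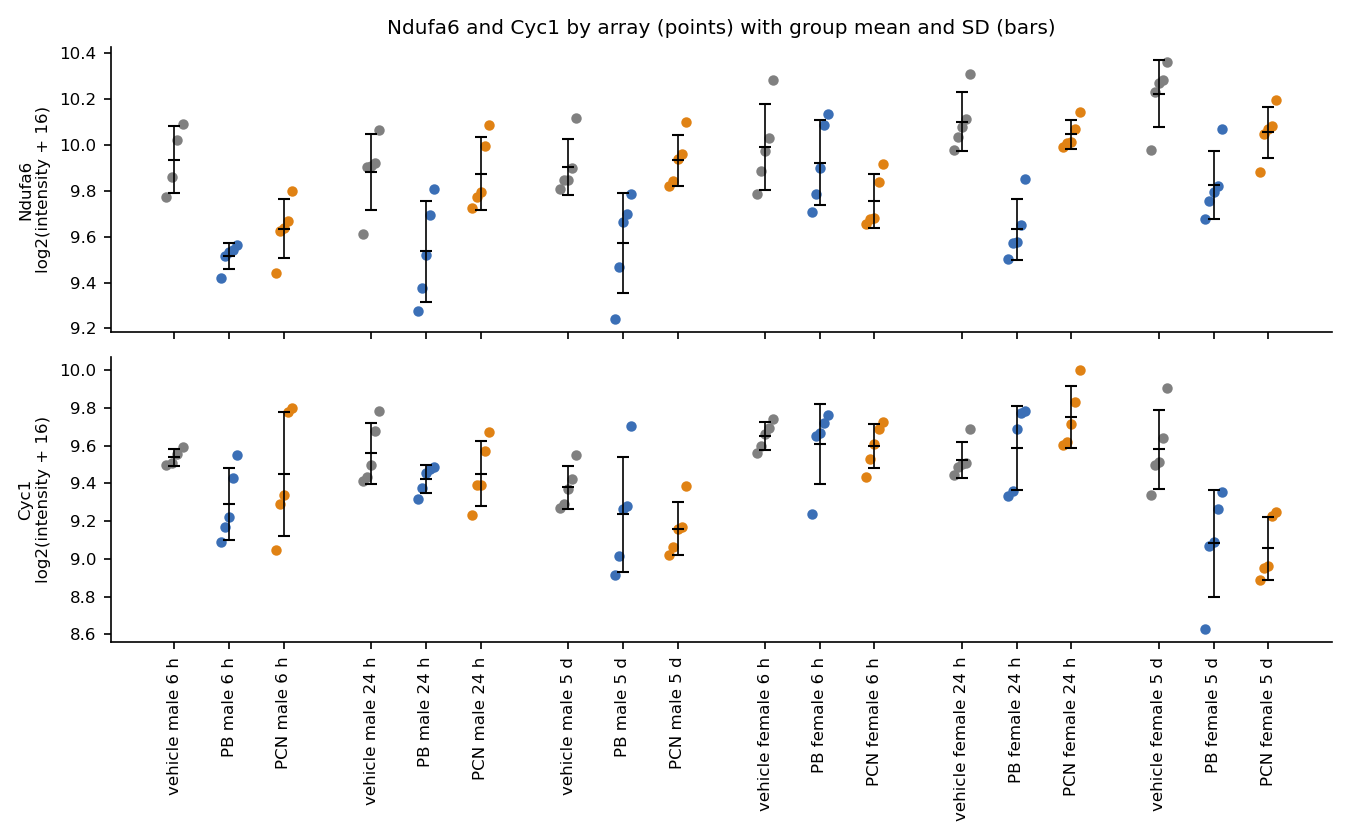
Log2 intensity of Ndufa6 and Cyc1 in each rat of the 18 vehicle, PB and PCN groups (points), with mean and SD. Ndufa6 means after PB lie under those of the matching vehicle rats, and the Cyc1 means in females at 5 days lie lower with PB (8.63 to 9.36) and PCN (8.89 to 9.25) than with vehicle (9.34 to 9.91).

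The vehicle rats themselves differed between the sexes at 5 days, and this gap enters the sex differences in the PB and PCN changes. Females were higher than males on 5 member probe sets and lower on 1, against 2.76% and 2.57% of all, and 41 of 54 genes had a higher mean in females (median difference 0.15). Ndufs4, an accessory subunit needed for complex I assembly, was higher by 0.38 (SE 0.11, adjusted p = 0.024), with 8.50, 8.60, 8.61, 8.69 and 8.78 in females and 8.03, 8.10, 8.22, 8.47 and 8.48 in males. Ndufa6 was higher by 0.32 (SE 0.093, adjusted p = 0.025) and Atp5f1b, the catalytic β subunit, by 0.19 (SE 0.051, adjusted p = 0.011). Named after their values were seen, a dimmer Cox8a probe set was higher by 0.64 and 1 of the Atp5if1 probe sets lower, at -0.84. Without vehicle rat 1514 the count was 3.

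In female livers after D3T feeding, 10 member probe sets were called higher and 3 lower, against 5.33% and 7.15% of all. Among probe sets as bright as the median member or brighter, a description chosen after the data were seen, 5 of 49 members (10.2%) were called higher and 3 (6.12%) lower, where 17.5% and 17.9% of all 1010 were, so the members' shares lay below the background. The higher calls were spread over 4 complexes, and the medians were 0.015 in complex I, -0.12 in Sdha, the 1 gene of complex II, 0.24 in complex III, 0.30 in complex IV and 0.11 in complex V. Median scaling turned complex I to -0.034 and gave 0.30, 0.43 and 0.22 for III, IV and V. Over all 54 genes, 33 were above 0 and 21 below. The D3T arrays were dimmer as deposited, with a mean intensity of 92.2 to 116 against 276 to 417 in the controls, so array brightness and diet cannot be told apart.

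In complex III, Uqcrc2, a core subunit, measured 8.20, 8.28, 8.32 and 8.38 in the controls and 8.82, 8.84, 8.90 and 9.02 after D3T. All D3T rats were above all controls, a change of 0.60 (SE 0.057, adjusted p = 0.0028). In complex IV, Cox6b1 measured 8.91, 8.92, 9.03 and 9.07 and 9.47, 9.50, 9.63 and 9.64, a change of 0.58 (SE 0.059, adjusted p = 0.0032) without overlap. Cox6c, a small subunit of complex IV, was read on a probe set that was the brighter one over all 8 arrays only through the D3T rats, so its change helped to choose it and is given as a description: it measured 4.91, 5.75, 5.85 and 6.06 in the controls and 7.41, 7.43, 7.45 and 7.58 after D3T, a difference of 1.82. The probe set that was brighter in the controls (mean 6.05 against 5.64) moved by 0.046, so the 2 probe sets of this gene disagree. Cox8b, the muscle and heart form of subunit 8, was at the floor in all 4 controls on both of its probe sets. Its brighter probe set was therefore also chosen through the D3T rats and is given as a description. It measured 4.39, 4.42, 4.79 and 4.91 after D3T, close above the floor, and the other one 4.00, 4.00, 4.05 and 4.36. Cox5b disagreed too: a dimmer probe set, named after its values were seen, changed by -1.04 (adjusted p = 0.0069) and the brightest by -0.15 (adjusted p = 0.49).

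In complex I, Ndufab1 measured 8.82, 8.94, 8.97 and 9.16 in the controls and 9.30, 9.49, 9.57 and 9.61 after D3T, a change of 0.52 (SE 0.095, adjusted p = 0.018) without overlap. Ndufc2 changed by -0.31 (adjusted p = 0.045) and Ndufa6 by -0.19 (adjusted p = 0.013), both lower in all 4 D3T rats than in any control. The probe sets of Ndufa6 disagreed, since a dimmer one went the other way without a call. It measured 4.91, 6.24, 6.29 and 6.75 in the controls and 6.47, 7.06, 7.22 and 7.22 after D3T. In complex V, Atp5f1d changed by 0.32 (adjusted p = 0.0082) and Atp5f1c, the γ subunit of the rotor, by 0.25 (adjusted p = 0.017). Dimmer probe sets named after their values were seen were called higher for Ndufb5 (1.13), Cox8a (0.47) and Atp5if1 (0.47). The Atp5if1 probe sets disagreed, and its brightest one was not called. That one measured 7.56, 7.83, 7.97 and 7.99 in the controls and 4.00, 8.17, 8.22 and 8.50 after D3T, with D3T rat 3 at the floor. Another measured 6.77, 6.95, 7.25 and 7.63 in the controls and 6.31, 6.69, 6.98 and 7.44 after D3T. Median scaling left 8 probe sets called higher and 1 lower and ended the calls of Atp5f1d, Ndufa6 and Ndufc2, and leaving out the dimmest 33.3% of probe sets ended these and Atp5f1c. Without D3T rat 1 or control rat 2, 8 probe sets were called in place of 13. Among related genes COX3, encoded in mitochondrial DNA, was called higher (0.47), as was Idh2 (0.68), while Mdh2 (-0.34) and the ADP/ATP carrier Slc25a4 (-1.39) were called lower, and none of 7 assembly factors was called. Of the hepatocyte markers 3 of 8 were called lower, with a summed level of 15.3 to 15.4 after D3T and 15.4 to 15.5 in the controls, as were 2 of 5 macrophage, 1 of 7 stellate and 1 of 3 blood markers, and the actin 3′/5′ ratio was 1.20 to 1.68 against 1.66 to 2.25. Their part in the result was not tested.

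In male livers after PFOA at 20 mg/kg/day, 2 member probe sets were called higher and 2 lower of 90, against 3.23% and 2.85% of all, so the shares of 2.22% each lay below the background. Among probe sets as bright as the median member or brighter, 1 of 45 members was called higher and none lower, where 9.67% and 13.7% of all 672 were. The gene median was 0.037, and -0.0020 under median scaling. By complex it was -0.090, 0.16, 0.18, 0.082 and 0.072 in complexes I to V. Cyc1 measured 10.94, 11.10 and 11.12 in the vehicle rats and 11.72, 11.73 and 11.83 with PFOA, above every vehicle rat, a change of 0.71 (SE 0.10, adjusted p = 0.015). Ndufa3 measured 11.20, 11.34 and 11.47 and 11.97, 12.29 and 12.50, also apart, a change of 0.92 (SE 0.16, adjusted p = 0.025). Ndufa11, an accessory membrane subunit of complex I, was lower, with 11.33, 11.39 and 11.43 and 10.82, 10.89 and 11.03, a change of -0.47 (SE 0.085, adjusted p = 0.028). A dim probe set of Atp5po, named after its values were seen, gave -1.53 (adjusted p = 0.023) and the brightest one 0.065 (adjusted p = 0.97). Median scaling ended the calls of Ndufa3 (adjusted p = 0.17) and Ndufa11 and kept Cyc1 (adjusted p = 0.036). Leaving out 1 array gave 0 (without PFOA rat R95472) to 4 calls, with 1 without each of the vehicle rats R95434, R95435 and R95436.

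In the same rats 4 of 43 assembly factors, 6 of 73 mitochondrial ribosome genes and 2 of 17 regulators (Esrra, 1.38, and Tfb1m, 1.19) were called higher and none lower. Of the citrate cycle genes 3 of 16 were higher and 1 lower, of the carriers 1 of 18 higher and 3 lower, and of the transporters 3 of 12 higher and 1 lower. Their medians, 0.30 for assembly factors, 0.25 for the ribosome and 0.22 for the citrate cycle, stood beside the subunits' 0.037, a difference that was not tested. Endothelial (2 of 6), stellate (2 of 8), hepatocyte (2 of 8) and macrophage (1 of 8) markers were called lower, 1 of 4 bile duct and 1 of 6 fat markers higher, and their part was not tested. With PFOS at 10 mg/kg/day Ndufa11 was the only member called, against 0.461% of all, at 10.52, 10.62 and 10.79 and a change of -0.74 (SE 0.085, adjusted p = 0.030). It was not called under median scaling, without the dimmest 33.3% of probe sets, with only these groups fitted, or without any of vehicle rats R95434, R95435 and R95436 and PFOS rats R95480 and R95481. The PFOS gene median was 0.045 and 0.43 under median scaling, and its actin 3′/5′ ratio was 3.67 to 4.85 against 1.79 to 3.16 in the vehicle rats. Cyc1 changed by 0.24 (adjusted p = 0.43) and Ndufa3 by 0.045 (adjusted p = 1.0) with PFOS, not called, beside 0.71 and 0.92 with PFOA at another dose. After 3 weeks of PFOS at 5 mg/kg no probe set of the array was called (0%) with 2 rats a group, with 0 higher and 2 lower members at an unadjusted p under 0.05, and the widest member changes were in Ndufb8 (-0.51) and Ndufa3 (-0.50).

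Wy-14643 raised a share of the subunit transcripts at each of 3 times. Of 85 member probe sets 18 were called higher and 0 lower at 1 day, 19 and 2 at 3 days, and 23 and 1 at 7 days. The shares over all probe sets were 5.9% and 5.54% at 1 day, 5.54% and 5.24% at 3 days, and 6.59% and 6.5% at 7 days. Among probe sets as bright as the median member or brighter, a set chosen after the data were seen, 18.6% of the members were called higher at 1 day against 16.4% of all, and none lower against 18.1%. At 3 days these shares were 20.9% against 14.2% higher and 2.33% against 16.5% lower. At 7 days they were 23.3% against 17.5% higher and none against 22.2% lower, and these differences were not tested. By gene the median was 0.12, 0.10 and 0.075, with 58, 56 and 49 of 80 genes above 0. Median scaling gave 0.23, -0.044 and -0.015, so the sign of the median at 3 and 7 days depended on the scaling. All 3 treated rats were above all 3 vehicle rats in this median at 1 day (0.0827 to 0.180 against -0.0584 to 0.0369) and at 3 days (0.0523 to 0.131 against -0.0079, 0.0048 and 0.0100), while at 7 days they spread over -0.13, 0.084 and 0.16, against -0.0520 to 0.0484. Complex II had medians of 0.15, 0.14 and 0.17, complex III 0.14, 0.14 and 0.12, complex I 0.15, 0.093 and 0.063, complex V 0.10, 0.086 and 0.089 and complex IV 0.069, 0.061 and 0.015.

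In complex I, Ndufa3 rose most, from 11.00, 11.08 and 11.11 in the vehicle rats to 12.10, 12.50 and 12.75 at 3 days, a change of 1.39 (SE 0.16, adjusted p = 0.00026) or 2.61-fold. Its groups did not overlap at any day, with changes of 0.74 (adjusted p = 0.012) at 1 day and 1.20 (adjusted p = 0.00044) at 7 days. Ndufab1 changed by 0.65 (adjusted p = 0.00045), 0.56 (adjusted p = 0.0015) and 0.66 (adjusted p = 0.00034) at 1, 3 and 7 days. Ndufs1, the large iron-sulfur core subunit, measured 10.00, 10.04 and 10.11 and 10.59, 10.62 and 10.94 at 7 days and changed by 0.66 (adjusted p = 0.0040) at 3 and 0.66 (adjusted p = 0.0028) at 7 days, after 0.14 (adjusted p = 0.55) at 1 day. Ndufc1 changed by 0.58 (adjusted p = 0.0018), 0.59 (adjusted p = 0.0019) and 0.33 (adjusted p = 0.038), and Ndufs7 by 0.45 (adjusted p = 0.0014), 0.33 (adjusted p = 0.0098) and 0.42 (adjusted p = 0.0017). Ndufa9, which lies near the ubiquinone site, changed little but regularly, by 0.12 (adjusted p = 0.018), 0.20 (adjusted p = 0.00078) and 0.21 (adjusted p = 0.00039). A dimmer probe set of Ndufv3, named after its values were seen, was called on all 3 days (0.56, 0.79 and 1.18), while the brightest one gave -0.064, -0.34 and -0.26 and was not called. Lower calls were few: Ndufb7 at 3 days (-0.36, adjusted p = 0.048) and Ndufa2 at 7 days (-0.43, adjusted p = 0.028).

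In complex II, Sdhb, the iron-sulfur subunit, was called at every day. It measured 11.50, 11.65 and 11.85 with vehicle and 12.04, 12.09 and 12.15 with Wy-14643 at 1 day, a change of 0.43 (SE 0.078, adjusted p = 0.0039). At 7 days it measured 11.64, 11.64 and 11.73 and 12.09, 12.16 and 12.19, a change of 0.48 (SE 0.078, adjusted p = 0.0015), and all treated rats stood above their vehicle rats at each time. In complex III, Cyc1 measured 10.92, 10.98 and 11.01 with vehicle and 11.45, 11.62 and 11.86 with Wy-14643 at 1 day, and 10.76, 10.88 and 11.02 and 11.54, 11.58 and 11.73 at 7 days. The changes were 0.68 (adjusted p = 0.00088), 0.42 (adjusted p = 0.016) and 0.73 (adjusted p = 0.00043) at 1, 3 and 7 days, and the groups did not overlap on any day. Uqcrfs1, the Rieske iron-sulfur protein, changed by 0.41 (adjusted p = 0.0015), 0.42 (adjusted p = 0.0016) and 0.42 (adjusted p = 0.0011). Uqcrc2 measured 10.82, 10.93 and 10.96 and 11.36, 11.53 and 11.70 at 7 days and changed by 0.18 (adjusted p = 0.12) at 1 day, 0.54 (adjusted p = 0.00041) at 3 and 0.63 (adjusted p = 9.2e-05) at 7 days. It was the only member whose effect was called higher at 7 days than at 1 day, by 0.45 (SE 0.097, adjusted p = 0.035), and Ndufb10 the only one called lower, at -0.36 (SE 0.080, adjusted p = 0.037), against 1.89% of all probe sets. Median scaling left no effect called higher and 1 called lower at 7 days. Leaving out 1 array gave 0 to 2 such members: none without vehicle rats 22 or 33 or treated rats 03 or 05, and 1 without vehicle rats 23, 24, 34 or 35 or treated rat 04.

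In complex IV, Cox5a, a small nuclear subunit, measured 7.09, 7.13 and 7.33 and 7.98, 8.06 and 8.36 at 1 day and rose by 0.95 (SE 0.12, adjusted p = 0.00035), with 0.38 (adjusted p = 0.066) at 3 days, not called, and 0.70 (adjusted p = 0.0022) at 7 days. Cox8a changed by 0.34 (adjusted p = 0.010) and 0.28 (adjusted p = 0.029) at 1 and 3 days, and Cox6a1 by 0.30 (adjusted p = 0.038) at 7 days. In complex V, Atp5mc3, a gene of the membrane c-ring, measured 12.59, 12.59 and 12.61 and 12.86, 13.04 and 13.05 at 3 days and changed by 0.36 (adjusted p = 0.0040), 0.39 (adjusted p = 0.0029) and 0.27 (adjusted p = 0.017). Atp5f1d changed by 0.53 (adjusted p = 0.00074), 0.34 (adjusted p = 0.013) and 0.32 (adjusted p = 0.015), and Atp5f1b by 0.24 (adjusted p = 0.035), 0.24 (adjusted p = 0.039) and 0.22 (adjusted p = 0.049). Atp5f1c rose by 0.26 (SE 0.037, adjusted p = 0.00053) at 7 days, and Atp5po was lower at 3 days (-0.27, adjusted p = 0.019). A dim probe set of Atp5if1, named after its values were seen, rose by 2.81 (SE 0.69, adjusted p = 0.017) at 7 days, while its brightest one changed by -0.33 (adjusted p = 0.21), so the inhibitor's probe sets disagree.

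Of the 85 member probe sets 13 were called higher at all 3 days, or 15.3%, against 332, or 2.09%, of 15866. These shares are not matched for brightness: bright probe sets were called more often, and no share among them was taken for this count. They were those of Ndufa3, Ndufa9, Ndufab1, Ndufc1, Ndufs3 (named after its values were seen), Ndufs7 and the dimmer Ndufv3 of complex I, Sdhb, Cyc1 and Uqcrfs1, and Atp5f1b, Atp5f1d and Atp5mc3. In all 29 were called higher at 1 or more days and 3 lower, and 45 were above 0 and 13 below 0 on each day. No share over all probe sets was taken for these counts, so they describe the members only. As a description over the 85 probe sets, the changes at 3 and 7 days had a Pearson r of 0.84 (Spearman rho 0.84), those at 1 and 3 days 0.55 (0.59) and those at 1 and 7 days 0.46 (0.53), where the days have separate vehicle rats but share the fit's scaling. The scaling decided many single calls: median scaling left 9 of 21 at 3 days and 10 of 24 at 7 days, and fitting only the groups compared also left 10 at 7 days. Ndufa3, Ndufab1, Cyc1 and Uqcrc2 remained called under it at 3 and 7 days, Sdhb, Uqcrfs1 and Atp5mc3 did not, and Atp5f1b turned to -0.16 at 3 days and -0.025 at 7 days. Without 3-day vehicle rat 29 or treated rat 07, 13 were called at 3 days and without rat 08, 12, while without 7-day vehicle rat 33 or 35, 15 and 14 were called at 7 days. As deposited, the 3-day treated arrays were brighter than their vehicle arrays, with a mean intensity of 529 to 609 against 314 to 446. The GAPDH 3′/5′ ratio was lower in treated rats at each time (1.55 to 1.67 against 1.72 to 1.87, 1.42 to 1.53 against 1.77 to 1.92 and 1.42 to 1.57 against 1.77 to 1.91), and the part of brightness and RNA quality in the result was not tested.

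**Figure D4:**
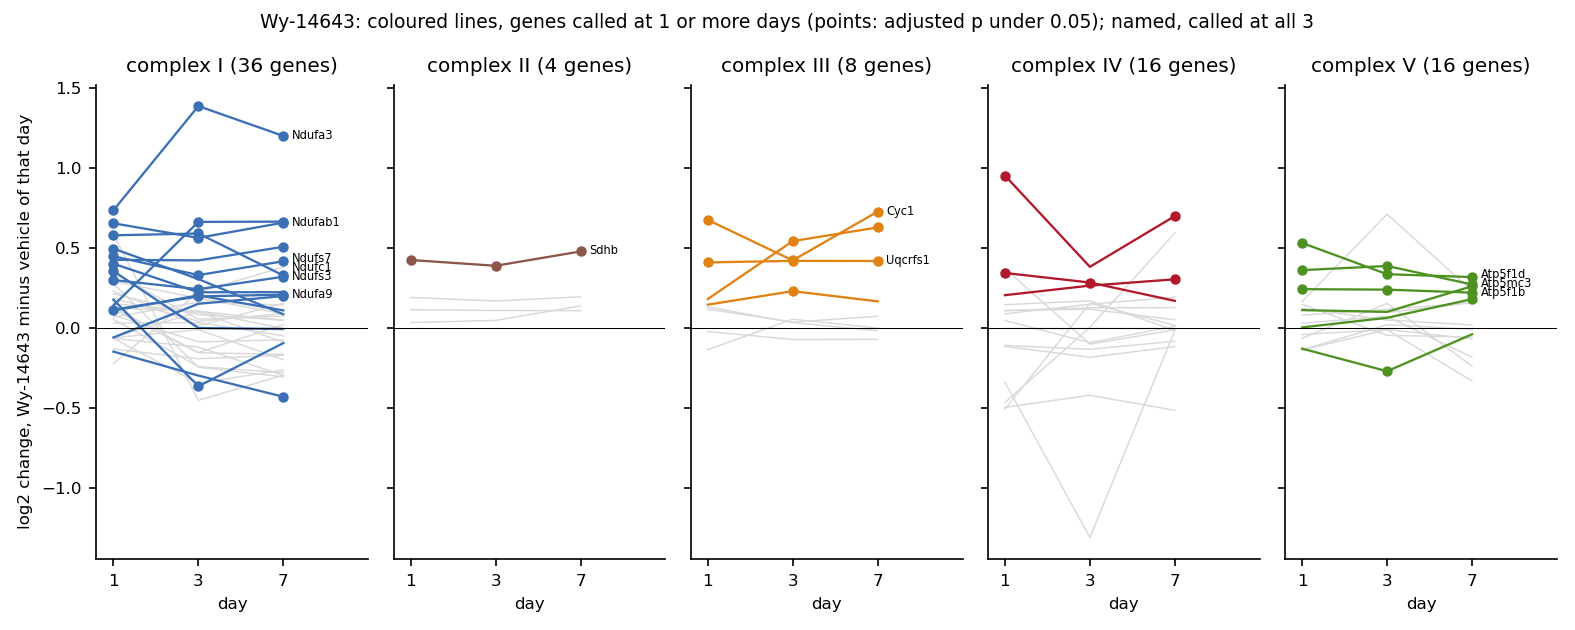
Log2 change after 1, 3 and 7 days of Wy-14643 in panels for complexes I to V: each line is a gene, coloured where it was called on at least 1 day, points mark an adjusted p under 0.05 and genes called on all 3 days are named. Ndufa3 reaches 1.39 at 3 days, and 1 line of complex II, Sdhb, is coloured.

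Other mitochondrial genes were called in both directions after Wy-14643, and are counted by gene, where over all probe sets 5.9%, 5.54% and 6.59% were called higher and 5.54%, 5.24% and 6.5% lower at 1, 3 and 7 days. Of the citrate cycle and pyruvate genes 5, 10 and 9 of 16 were called higher at 1, 3 and 7 days and none lower, with Suclg1 at 0.85, 1.19 and 1.06. Of the mitochondrial ribosome genes 26, 13 and 17 of 71 were called higher and 0, 1 and 2 lower, and of the assembly factors 8, 9 and 9 of 39 higher. Of the carriers and electron entry genes 6, 6 and 7 of 17 were higher and 3, 2 and 2 lower, with Etfb, Etfdh and Gpd2 called higher and Prodh and Coq10a lower on all 3 days. Of the transporters 4, 3 and 3 of 12 were higher, and of the regulators 1, 2 and 2 of 10, with 1 lower at 3 days and Tfam, the packaging factor of mitochondrial DNA, at 0.65, 0.69 and 0.74. COX1, 1 of the 2 measured subunits encoded in mitochondrial DNA, was lower at 1 day (-1.29). Of the hepatocyte markers 3 of 8 were called lower on each day, and at 7 days so were 3 of 7 macrophage markers and both blood markers, whose summed level was 12.5 to 13.0 against 13.4 to 13.9. Their part in the result was not tested.

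Some subunits have forms for particular tissues, and these were followed by array. In the Wy-14643 study Cox8b, the heart and muscle form of subunit 8, was at the floor on 18 of 18 arrays, Cox7a1, the heart and muscle form of subunit 7a, on 13 and Cox6b2, the testis form of subunit 6b, on 10. In the PFOA and PFOS study Cox7a1 was at the floor on 9 of 9 arrays, Cox8b on 8 and Cox6b2 on 2. Cox6a2 and Ndufa4l2 lay above it on nearly all of these arrays, with Cox6a2 at the floor on 1 of 18. Cox4i2 was at the floor on 3 of 9 arrays of the PFOA and PFOS study and at 4.40 to 6.12 on the rest. None of these 3 genes was called in any treatment comparison. On the older array the probe sets of a form differed: those of Cox8b were at the floor in 44 and 68 of 89 arrays of the PB and PCN study, and those of Cox6a2 in 0, 79 and 89. Apart from Cox8b after D3T, on a probe set that its own change helped to choose, no tissue form of these pairs was called. Their counterparts of liver were called: Cox4i1 lower in PCN females, Cox6a1 lower there and higher after 7 days of Wy-14643, and Cox8a higher after Wy-14643 at 1 and 3 days.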

How the data were processed

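Gene expression was measured in whole rat liver on 3 types of single-colour Affymetrix array. The authors deposited linear intensities for the probe sets, some of them negative. How these intensities were summarised, background corrected or scaled is not given in the sources used here. Groups were taken from the sample labels.

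Arrays of a study were quantile normalised where their median log2 values differed by over 0.5, which left the 3-week PFOS study as deposited. Negative values became 0 before log2(value + 16), so a fold understates the change of dim genes. The model was limma (3.58.1, under R 4.3.3), fitted by study with lmFit on the means of all groups and eBayes, two-sided, with Benjamini-Hochberg adjustment over all probe sets except the Affymetrix controls and calls at an adjusted p under 0.05. The vehicle rat 1003 was left out. Probe sets that share several symbols (6 or 7 an array) were left out. In each comparison up to 3 called genes per complex and direction with the largest change were named, with the genes called most often, the pairs of tissue isoforms and Atp5if1, and the 2 with the largest change where none was called. The alternatives were another scaling, a pseudocount of 64, only the groups compared, rat 1003 kept, the dimmest 33.3% of probe sets left out, each array left out, a replicate block in the D3T study and averaging all probe sets of a gene. The members, gene lists and tests were chosen with earlier results of these data known.

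The fit was tested on simulated data: among genes lowered by 1 on the log2 scale, 39 of 50 were recovered in the PB comparison in males at 6 h, 21 in the D3T, 12 in the PFOA, 31 in the 1-day Wy-14643 and 12 in the 3-week PFOS comparison. Over all simulated sizes (50 genes each at 0.5, 1, 2 and 3), false calls numbered 12, 9, 9, 7 and 5 in the same order. Tables used pandas 2.3.3 and numpy 2.4.6 under Python 3.11.15, and figures matplotlib 3.10.9.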

Additional observations from a re-analysis of the deposited data

Results flagged for a closer look

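Of 100 sets of arrays (a complex in a group of 4 or 5 rats) tested for a rat far from the rest, 5 had one, and chance gives about 1 in 20. The values are the median over a complex of the log2 intensity minus its mean in the controls. In complex II, which is Sdha alone on this array, PB female 4513 at 5 days stood at 0.348, the other 4 at 0.105 to 0.166. In complex III vehicle male 1008 at 24 h stood at -0.0822, the others at 0.0162 to 0.0464. In complex IV vehicle male 1006 at 24 h stood at 0.0985 (others -0.0118 to 0.0046), PB male 4012 at 5 days at -0.185 (others 0.0290 to 0.0929) and PB female 4511 at 5 days at 0.000913 (others -0.148 to -0.106).

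The effect of Wy-14643 differed between 7 days and 1 day for 2 members in limma's test of the difference itself. That of Uqcrc2 was 0.447 higher at 7 days (SE 0.0975, adjusted p = 0.035) and that of Ndufb10 was lower, at -0.362 (SE 0.0797, adjusted p = 0.037). The causes were not tested.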

How the results depend on the processing

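Counts are of member probe sets called. Under the other scaling the count went from 1 to 0 after PB in males at 6 h and at 24 h, from 4 to 2 in males and 6 to 1 in females at 5 days, from 2 to 0 after PCN in males at 5 days, from 1 to 2 in females at 6 h and from 24 to 11 in females at 5 days, from 4 to 2 with PFOA, from 1 to 0 with PFOS, from 21 to 9 and 24 to 10 at 3 and 7 days of Wy-14643, and from 2 to 1 for its 7-day minus 1-day effect. Atp5f1b reversed to -0.16 at 3 days and -0.025 at 7 days of Wy-14643. With only the groups compared fitted, the counts were 0 after PB in males at 6 h, 24 h and 5 days and in females at 5 days, 1 after PCN in males at 5 days, 0 in females at 6 h, 1 (from 0) at 24 h and 12 at 5 days, 0 with PFOS, 10 at 7 days of Wy-14643 and 0 for the difference between days. With rat 1003 they were 0, 0 and 1 after PB in males at 6 h, 24 h and 5 days, 1 and 0 in females at 24 h and 5 days, 10 (from 0) after PCN in males at 6 h, 1 in males at 5 days and 13 in females at 5 days; Ndufa6 after PB in males at 6 h reversed to 0.77 and Cox4i1 after PCN in males at 6 h to 1.25. Without the dimmest probe sets PFOS and the difference between days had 0. A pseudocount of 64 gave 1 (from 0) after PCN in males at 6 h. Replicate numbers recur across the D3T diets, but same-numbered rats did not deviate together (r of 0.27, -0.078, -0.095 and -0.21) and are not pairs; with a replicate block 5 in place of 13 were called. The causes were not tested.

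Leaving out 1 array gave ranges of 0 to 1, 0 to 2 and 4 to 7 after PB in males at 6 h, 24 h and 5 days, 0 to 0, 1 to 3 and 1 to 6 in females, 0 to 2, 0 to 1 and 0 to 3 after PCN in males, 0 to 4, 0 to 1 and 19 to 27 in females, 3 to 8 between vehicle females and males, 0 to 0 for both differences between the sexes, 8 to 14 with D3T, 0 to 0 with PFOS for 3 weeks, 0 to 4 with PFOA, 0 to 1 with PFOS, 14 to 17, 12 to 16 and 14 to 25 at 1, 3 and 7 days of Wy-14643 and 0 to 2 for its difference between days.

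Among named genes, 428 results stood on the same side of the threshold under the other scaling, 45 lost their call, 2 gained one and 2 reversed; with a pseudocount of 64 these were 475 and 2 gained, with only the groups compared 392, 40 lost and 4 gained, and without the dimmest probe sets 418, 16 lost and 2 gained. Complex medians moved by more than the spread between rats in 49 of 115 cases under the other scaling. The share of higher among all called probe sets moved from 84.4% to 96.0% after PB in males at 6 h, 52.5% to 62.6% at 5 days, 57.0% to 73.1% and 58.5% to 69.5% in females at 24 h and 5 days, 69.9% to 82.7%, 82.0% to 94.0% and 61.1% to 74.0% after PCN in males at 6 h, 24 h and 5 days, 61.5% to 78.2% with PFOS, 51.6% to 67.1% at 1 day of Wy-14643 and 56.3% to 41.9% for its difference between days. The 3-week PFOS comparison, with 2 rats a group, had no call on the array. Dim signals at the floor have no measured change.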
